A study of Homo sapiens with 2 samples.

Results

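The genes examined here build and position the tight junction of epithelial cells. They comprised the claudins, the zonula occludens scaffolds TJP1 and TJP3, the junctional adhesion molecules F11R, JAM2 and JAM3, the scaffolds CGN, CGNL1, MPDZ and INADL (now named PATJ), the MARVEL protein MARVELD3, and the polarity genes PARD3, PARD6A, PARD6B, PRKCI, CRB3 and LLGL2. They were chosen by gene symbol: every gene symbol made of CLDN and a number, and a list of named scaffold, adhesion and polarity genes. The symbols matched 37 of 18923 genes and 530 of 286871 probesets that carry exactly 1 gene symbol, and 21 of the 37 were claudins. MARVELD2, which the list also names, had no such probeset and was not analysed here. Total RNA of MKN45P, a highly metastatic human gastric cancer line, and of its parental line MKN45 was hybridised to an exon array, 1 array per line. An exon array reads a gene at many places, each with a small group of probes called a probeset. Both lines were grown in RPMI medium with serum and were lifted with trypsin and EDTA before lysis, and the extracted RNA was depleted of ribosomal RNA ahead of cDNA synthesis, per the labels. How the metastatic line was derived is not given in the sources used here.

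Tight junctions seal the space between neighbouring epithelial cells and hold apart the apical and basolateral membrane. Claudins span the membrane and bind those of the next cell, some tightening the seal and others forming pores for small ions or water. The zonula occludens proteins hold claudin tails on the inner face and tie them to actin, and the Par, Crumbs and Scribble groups of polarity proteins set where along the cell side the junction forms.

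Values are on a log2 scale, so that 1 unit is a 2-fold difference. For each probeset the MKN45 value was subtracted from the MKN45P value, and the median of these over a gene is called the gene's difference. Its level in a line is the median value over the same probesets. A gene was called measured if it had 4 or more probesets whose median level over both arrays was not under 1.92, the middle value of all probesets. With 1 array of each line there was no replicate, so no test was made and no difference could be set against the spread between cultures. The interquartile range over a gene's probesets is given as the spread within these arrays, whose number limits the precision. Levels of different genes come from different probes and were not compared with each other. In RNA from a whole culture, fewer cells with a transcript and less of it per cell cannot be told apart.

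Both arrays ran over nearly the same range of values, with medians of 1.91 in MKN45P and 1.93 in MKN45. The epithelial markers were above the low end in both lines. CDH1, the epithelial cadherin, had a level of 10.74 in MKN45P and 10.26 in MKN45, and EPCAM, an epithelial adhesion molecule, had 7.43 in MKN45P and 6.39 in MKN45. The keratins had negative differences, of -0.21 for KRT8, -0.08 for KRT18 and -0.76 for KRT19, the last from 2 probesets with a level of 5.60 in MKN45P and 6.36 in MKN45. Of 5 annotated epithelial markers, none lay below 2.77, the 75th percentile of all probesets. All 7 endothelial, all 6 fibroblast and all 5 immune markers had levels of at most 2.86 in MKN45P and at most 3.30 in MKN45. The mesenchymal markers VIM, CDH2, FN1 and ZEB1 had levels of at most 1.84 in MKN45P and 1.85 in MKN45. These are medians, and 7 of the 22 VIM probesets were at 2.77 or more, 2 of them higher and 5 lower in MKN45P. Of 5 gastric markers 3 were below 2.77, and VSIG1, an adhesion gene of gastric epithelium, was the one past 2-fold, at 1.80 in MKN45P and 6.82 in MKN45. The 5 mesothelial markers were split in direction. UPK3B (-1.06) and WT1 (-0.59) were lower in MKN45P, and MSLN (0.34) and CALB2 (0.48) were higher. CALB2 had 9.49 in MKN45P and 8.70 in MKN45, and ITLN1 was not measured.

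In the median over all probesets of a gene, CLDN7, TJP1, F11R and PARD3 differed most, and all 4 were higher in MKN45P. Of the 37 genes, 28 were measured, and 20 of the 28 lay within 0.3 log2 units of 0 (71.4%), beside 64.5% of all measured genes. CLDN7 and TJP1 were at least 2-fold higher in MKN45P, which is 7.14% of the measured genes of the set, against a background of 4.58% of all 13130 measured genes. None was 2-fold lower, where the background was 1.20%. A positive difference was found in 11 of the 28 (39.3%), beside 54.9% of all measured genes. Claudins made up 15 of the 28, with 5 positive and 10 negative, and the other 13 had 6 positive and 7 negative. CLDN2, CLDN14 and CLDN16 had levels under 1.92 in MKN45P and above it in MKN45. They counted as measured only through MKN45, which favours a negative difference, so these sign counts give no direction for the set. The differences ran from -0.35 for CLDN19 to 1.14 for CLDN7, with a median of -0.05 (interquartile range over genes -0.16 to 0.11), beside 0.03 for all measured genes. In the lower part of the scale values are compressed, and 9 of the 28 genes had a level below 2.77. Among the 19 above it, 2 were 2-fold higher (10.5%, background 7.25%) and none 2-fold lower (background 1.86%), 10 had a positive and 9 a negative difference, and their median was 0.01, beside 0.12 for all measured genes of such levels.

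**Figure D1:**
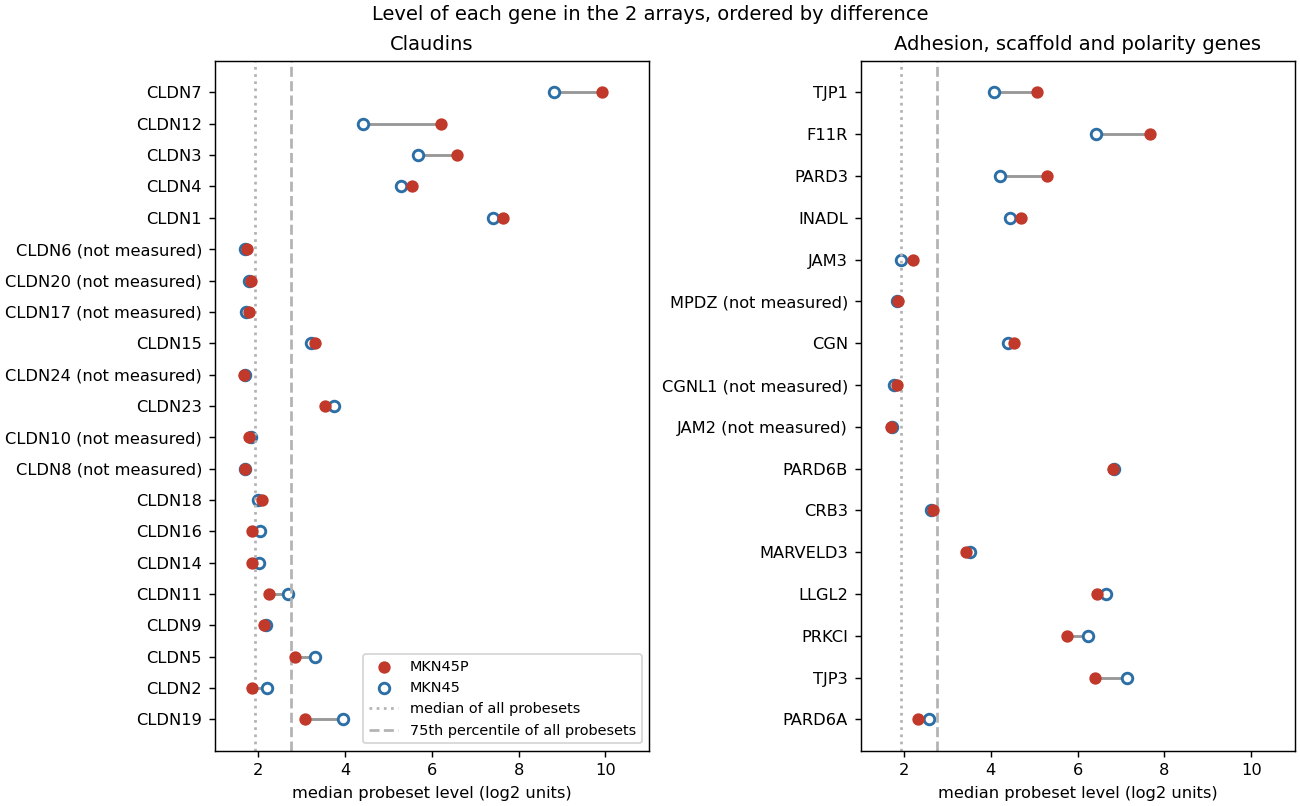
Median probeset level of each gene in MKN45P (filled) and MKN45 (open), in log2 units, claudins on the left and the other genes on the right, ordered by gene difference from the highest at the top. MKN45P lies clearly to the right for CLDN7, TJP1, F11R, PARD3, CLDN12 and CLDN3 and to the left for CLDN19 and TJP3. The 9 genes marked as not measured lie near the low end.

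Single probesets of these genes passed 2-fold in shares close to those over all genes. Of 279 probesets of the set with a level not under 2.77, 48 (17.2%) had a value 2-fold or more above MKN45 in MKN45P and 20 (7.17%) lay as far below it. The shares over 139760 such probesets of all genes were 17.0% and 7.93%. Of the 48, 42 belonged to CLDN7, TJP1, F11R and PARD3, which held 8, 29, 19 and 24 of the 279 probesets. These genes have the highest differences, taken from the same values, so their large share follows from how they were picked.

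**Figure D2:**
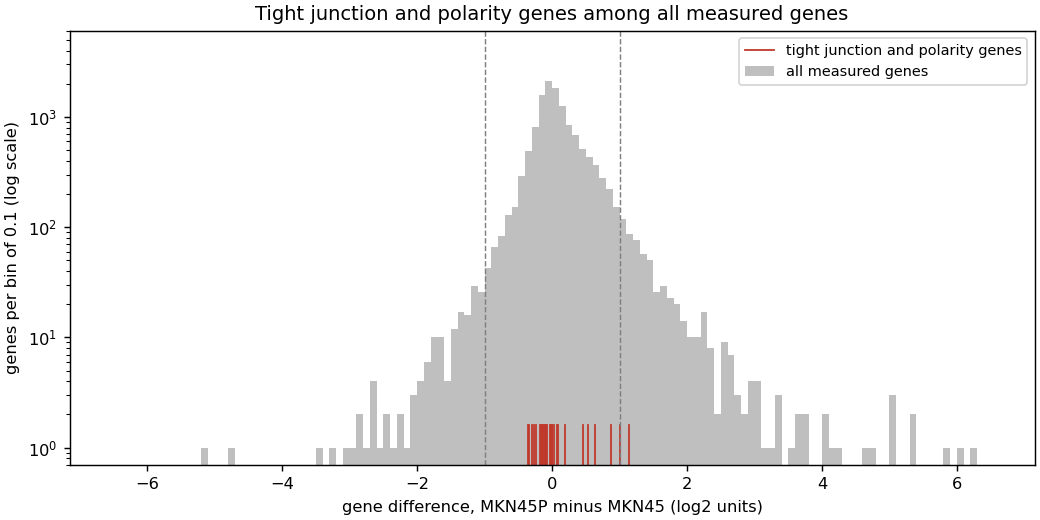
Gene differences (MKN45P minus MKN45, log2 units) of all 13130 measured genes as grey bars, on a logarithmic count axis, with the 28 measured tight junction and polarity genes as red ticks and dashed lines at 2-fold. The ticks run from -0.35 to 1.14, inside a distribution that runs from -5.11 to 6.22.

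CLDN7, a claudin of the seal that also lies along the lateral membrane bound to EPCAM, was the gene with the highest difference. It had a level of 9.93 in MKN45P, against 8.83 in MKN45. The difference was 1.14 (interquartile range 0.85 to 1.30), and all 9 probesets were higher in MKN45P. The widest gap was at probeset 3743555, with 9.89 in MKN45P and 8.16 in MKN45. The narrowest was at 3743565, which was near the low end in both lines, at 2.23 in MKN45P and 1.91 in MKN45. At the brightest probeset, 3743553, the values were 11.44 in MKN45P and 10.59 in MKN45. CLDN7 stayed past 2-fold under every alternative that measured it, between 1.04 and 1.16. Its 3 nearest measured genes on each side in the RefSeq order of GRCh38.p14 had differences from -0.23 to 0.81, and none of the 6 passed 2-fold.

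TJP1, the scaffold ZO1 that links claudins and F11R to actin, was just past 2-fold higher in MKN45P. Its level was 5.06 in MKN45P and 4.08 in MKN45, with a difference of 1.01 (0.38 to 1.50) over 41 probesets, of which 37 were higher in MKN45P. Over the 29 probesets at or above 2.77 the difference was 1.25, and 20 of them passed 2-fold. Probeset 3615608 differed most, with 7.52 in MKN45P and 5.06 in MKN45. The opposite extreme was 3615684, with 4.70 in MKN45P and 5.15 in MKN45. Where the probesets were brightest the gap was smaller, as at 3615605 with 10.35 in MKN45P and 9.66 in MKN45. The 2-fold call of TJP1 was lost with quantile normalization (0.86), with loess (0.93), with the mean of its probesets (0.95) and with the difference of median levels (0.98). Neighbouring genes differed by -0.37 to 0.91.

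F11R and PARD3 came next, higher at most probesets but under 2-fold. F11R encodes the junctional adhesion molecule JAM-A, whose tail binds the polarity scaffold encoded by PARD3. F11R had a level of 7.67 in MKN45P, against 6.42 in MKN45, and a difference of 0.88 (0.49 to 1.15), with 21 of 23 probesets higher in MKN45P. At its probeset 2440484 the values were 5.82 in MKN45P and 3.80 in MKN45, while 2440502 went the other way, at 7.94 in MKN45P and 8.41 in MKN45. F11R passed 2-fold with loess (1.01) and with the difference of median levels (1.25). PARD3 had a level of 5.30 in MKN45P and 4.22 in MKN45, a difference of 0.64 (0.20 to 1.05), and 27 of 33 probesets higher. Its largest gap was 2.12 at probeset 3284685, with 6.33 in MKN45P and 4.22 in MKN45, and its lowest value was -0.55 at 3284793. With the difference of median levels PARD3 was at 1.08.

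**Figure D3:**
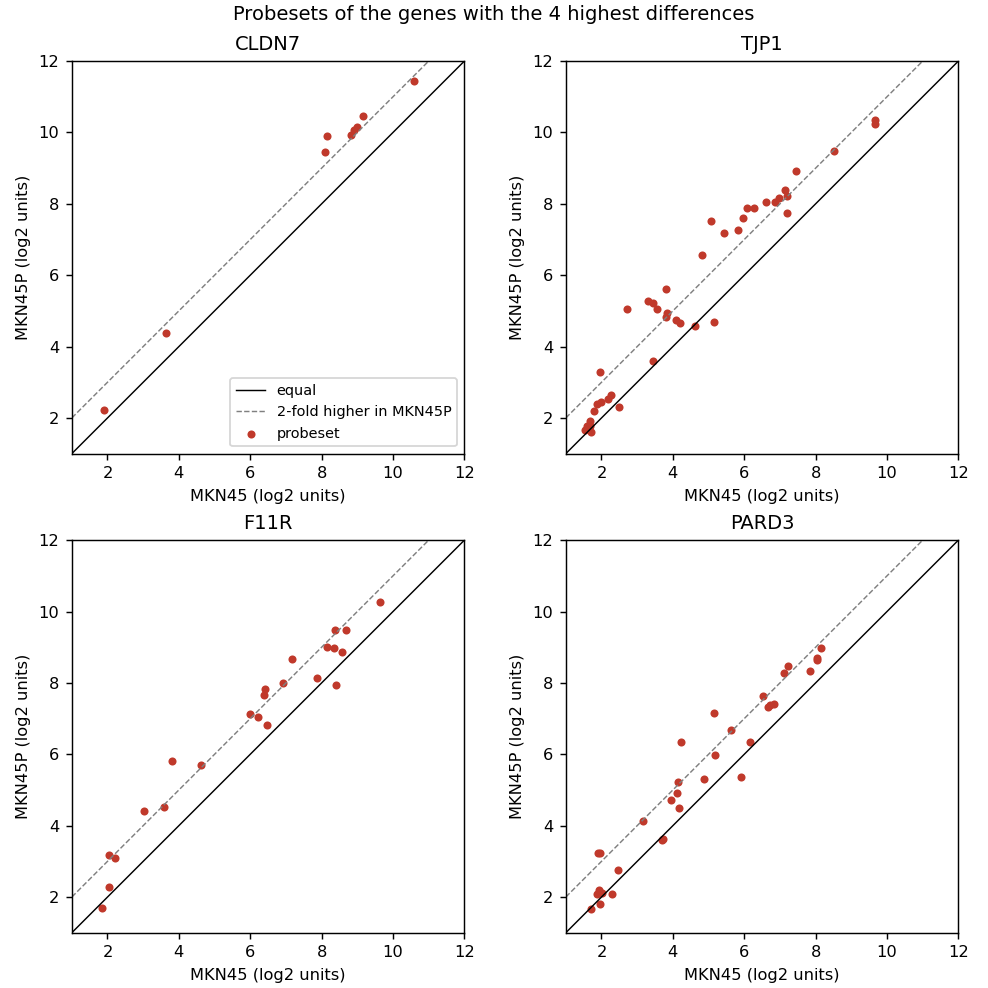
Each point is a probeset of CLDN7, TJP1, F11R or PARD3, with its MKN45P value on the vertical and its MKN45 value on the horizontal axis, in log2 units; the solid line marks equal values and the dashed line 2-fold higher in MKN45P. All 9 points of CLDN7, 37 of 41 of TJP1, 21 of 23 of F11R and 27 of 33 of PARD3 lie above the line of equal values.

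CLDN12, CLDN3, CLDN4 and CLDN1 had positive differences, all under 2-fold, and those of CLDN4 and CLDN1 were close to 0. CLDN12, a claudin without the usual scaffold-binding tail end, had levels of 6.21 in MKN45P and 4.42 in MKN45. These lie 1.79 apart, but the median of its 5 probeset differences was 0.53 (0.51 to 0.86), because the middle probeset is also the one with the widest gap. Its brightest probesets, 3012030 and 3012031, differed by 0.51 and 0.86. CLDN3, a sealing claudin and a receptor of a bacterial enterotoxin, had 6.58 in MKN45P and 5.69 in MKN45 and a difference of 0.46 (0.20 to 0.60), with 5 of 6 probesets higher. Its probeset 3056293 stood at 6.89 in MKN45P and 5.16 in MKN45, and 3056298 at 4.82 in MKN45P and 5.21 in MKN45. CLDN4, the next measured gene to CLDN3 on the chromosome and also a receptor of that toxin, had 5.55 in MKN45P and 5.30 in MKN45. Its difference of 0.19 (-0.05 to 0.52) came from 3 probesets that were higher and 3 that were lower. CLDN1, which seals the epidermis among other epithelia, had 7.65 in MKN45P and 7.40 in MKN45 and a difference of 0.07 (0.00 to 0.31). Its 3 brightest probesets, 2710608, 2710605 and 2710607, differed by 0.02, -0.02 and 0.14.

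At the other end of the claudins, CLDN19, CLDN2 and CLDN5 had negative differences, none of them 2-fold. CLDN19, known from magnesium reabsorption in the kidney, had a level of 3.07 in MKN45P and 3.96 in MKN45 and a difference of -0.35 (-0.96 to 0.03). The value was -0.96 over its 4 probesets at or above 2.77 and -0.89 with the difference of median levels. It was lower at 5 of 7 probesets, among them 2408996, at 6.07 in MKN45P and 7.31 in MKN45, but 2409002 was higher, at 5.36 in MKN45P and 4.74 in MKN45. Its lowest difference was -1.52 at 2409003, with 3.07 in MKN45P and 4.59 in MKN45. CLDN5, the main claudin of vascular endothelium, had 2.85 in MKN45P and 3.30 in MKN45 and a difference of -0.17 (-0.82 to -0.01). At its brightest probesets, 3952766 and 3952767, the values were 5.95 and 6.60 in MKN45P, against 6.95 and 7.38 in MKN45. The other 6 endothelial markers had levels below 2.77 in both lines.

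CLDN2, which forms pores for sodium and water in leaky epithelia, showed its difference at a few probesets. Over all 9 the difference was -0.26 (-1.29 to 0.02), with levels of 1.85 in MKN45P and 2.20 in MKN45, both near the low end. At probeset 3986356 the value was 1.85 in MKN45P and 4.35 in MKN45. At 3986357 it was 2.11 in MKN45P and 3.83 in MKN45, at 3986354 it was 1.98 in MKN45P and 3.27 in MKN45, and at 3986371 it was 2.69 in MKN45P and 3.54 in MKN45. The remaining 5 probesets were at 2.29 or lower in both lines. At the 3 probesets with the widest gaps the MKN45P values were near the low end, where a difference is compressed. Probesets 3986356, 3986357 and 3986371 reached a mean level of 2.77 only through MKN45, so a summary over the brighter probesets of CLDN2 had to be lower in MKN45P. The neighbouring measured genes differed by -0.60 to 0.74.

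CRB3, the epithelial Crumbs protein that recruits the apical polarity complex, was also lower in MKN45P at a few probesets while its median over all 10 was near 0. Its gene difference was -0.10 (-1.17 to 0.09), with levels of 2.68 in MKN45P and 2.63 in MKN45. Probeset 3818457 had 3.01 in MKN45P and 4.90 in MKN45, probeset 3818454 had 3.94 in MKN45P and 5.63 in MKN45, and probeset 3818452 had 3.41 in MKN45P and 4.70 in MKN45. The remaining probeset with a level above 2.77, 3818459, did not share the gap, at 4.96 in MKN45P and 4.90 in MKN45. Over these 4 probesets the difference was -1.49, whereas it was -0.50 with the mean of all its probesets and 0.05 with the difference of median levels. Of the 6 nearest measured genes, 1 was 2-fold lower, SLC25A23 at -1.05, and the others lay between -0.83 and 0.15. Restricting genes to probesets at or above 2.77, with at least 3 of them, left 24 measured genes of the set, of which CLDN7 and TJP1 were 2-fold higher (8.33%) and CLDN2 and CRB3 2-fold lower (8.33%). That restriction was chosen after the data had been seen, and the CLDN2 count in it supports nothing, since its probesets entered through MKN45 alone. Over all 11316 genes treated in this way the background was 11.3% higher and 3.04% lower.

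The sequences before the transcription starts of CLDN7 and CRB3 are shown because, of the 37 start windows of 25 genes of the set, theirs hold the most copies of the E-box CAGGTG, the site bound by the epithelial repressors of the Snail and ZEB families. The windows are the 250 bases before a start, from RefSeq with the build GRCh38.p14, and the capitals mark CAGGTG or, on the other strand, CACCTG. The CLDN7 window lies on the minus strand at chr17:7262479-7262728, before the second of its listed starts, and the CRB3 window on the plus strand at chr19:6464021-6464270.
CLDN7: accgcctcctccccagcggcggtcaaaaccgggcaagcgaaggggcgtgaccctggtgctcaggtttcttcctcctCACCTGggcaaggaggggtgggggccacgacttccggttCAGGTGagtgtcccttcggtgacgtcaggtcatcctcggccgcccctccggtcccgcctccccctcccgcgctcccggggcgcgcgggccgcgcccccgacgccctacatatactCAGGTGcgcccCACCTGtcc
CRB3: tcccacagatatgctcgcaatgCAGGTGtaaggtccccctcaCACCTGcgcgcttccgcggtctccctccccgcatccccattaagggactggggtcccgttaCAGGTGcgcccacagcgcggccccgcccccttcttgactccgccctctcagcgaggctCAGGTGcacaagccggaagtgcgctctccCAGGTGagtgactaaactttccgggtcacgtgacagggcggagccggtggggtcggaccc
CLDN7 has 4 copies, 2 on each strand, and the nearest begins 9 bases before the start. CRB3 has 5, of which 4 read CAGGTG and 1 reads CACCTG, and the nearest begins 60 bases before the start. The other listed window of CLDN7 held no copy. No window was read for CLDN5, CLDN8, CLDN9, CLDN19, CLDN23, F11R, JAM2, JAM3, LLGL2, MARVELD3, PARD3 or PARD6B. The ranking by copies and the shares below therefore hold for the other 25 genes only. The motif was found in 7 of the 37 windows of these 25 genes (18.9%). It was in 17.5% of all 35116 windows, of which 43 held 4 or more copies. The GC box GGGCGG, searched on both strands, was in 59.5% of the windows of these 25 genes and 42.6% of all. Because genes of the set are missing, no conclusion is drawn from either pair of shares. ZEB1 had a level of 1.84 in MKN45P and 1.81 in MKN45, below the median of all probesets. The other genes of the Snail and ZEB families were not examined here. The windows were chosen for display by their motif counts. A match is a string of letters and not a bound site.

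**Figure D4:**
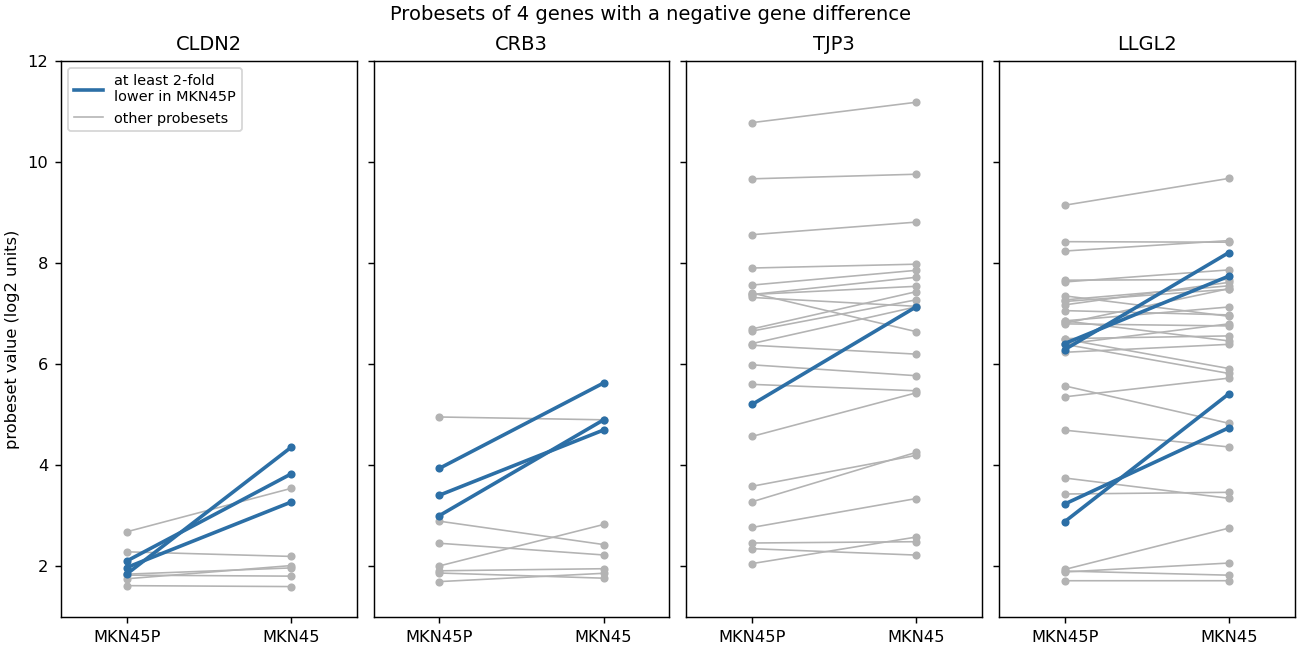
Values of every probeset of CLDN2, CRB3, TJP3 and LLGL2 in MKN45P (left) and MKN45 (right), in log2 units, with a line joining the values of a probeset and blue lines where it was at least 2-fold lower in MKN45P. In CLDN2 and CRB3 3 probesets each have blue lines, in TJP3 1 and in LLGL2 4, and the grey lines of the other probesets slope less or the other way.

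None of the remaining scaffolds was past 2-fold. TJP3, the zonula occludens protein restricted to epithelia, went the opposite way to TJP1, with a level of 6.41 in MKN45P and 7.14 in MKN45 and a difference of -0.29 (-0.62 to 0.05), or -0.73 with the difference of median levels. It was lower at 17 of 23 probesets, and at 3817138 the values were 5.20 in MKN45P and 7.14 in MKN45. CGN, which encodes cingulin, an actin and myosin binding plaque protein, was at 4.54 in MKN45P and 4.40 in MKN45, with a difference of 0.01 (-0.32 to 0.24) and 11 probesets on either side of 0. INADL, a PDZ scaffold that joins Crumbs to the zonula occludens proteins, had 4.69 in MKN45P and 4.45 in MKN45 and a difference of 0.09 (-0.13 to 0.38) over 48 probesets. Its partner at the junction MPP5, now named PALS1, differed by 0.01.

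Apart from PARD3, the polarity genes differed by less than 0.35 log2 units in the median over all probesets. PRKCI, the atypical protein kinase C of the Par complex, was lower at all 6 probesets, at 5.75 in MKN45P and 6.25 in MKN45 (difference -0.24, -0.81 to -0.09; -0.44 with the mean of its probesets and -0.50 with the difference of median levels). Its widest gap was -1.09 at 2651929, and at its brightest probeset, 2651921, the values were 9.38 in MKN45P and 9.68 in MKN45. PARD6B, an adaptor of that kinase, had 6.82 in MKN45P and 6.84 in MKN45, and every one of its 7 probesets lay between -0.19 and 0.18. PARD6A, a second such adaptor, had 2.33 in MKN45P and 2.58 in MKN45 and a difference of -0.34 (-0.50 to -0.18). LLGL2, a basolateral polarity protein of the Scribble group, had 6.45 in MKN45P and 6.66 in MKN45 and a difference of -0.17 (-0.41 to 0.08) over 32 probesets.

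**Figure D5:**
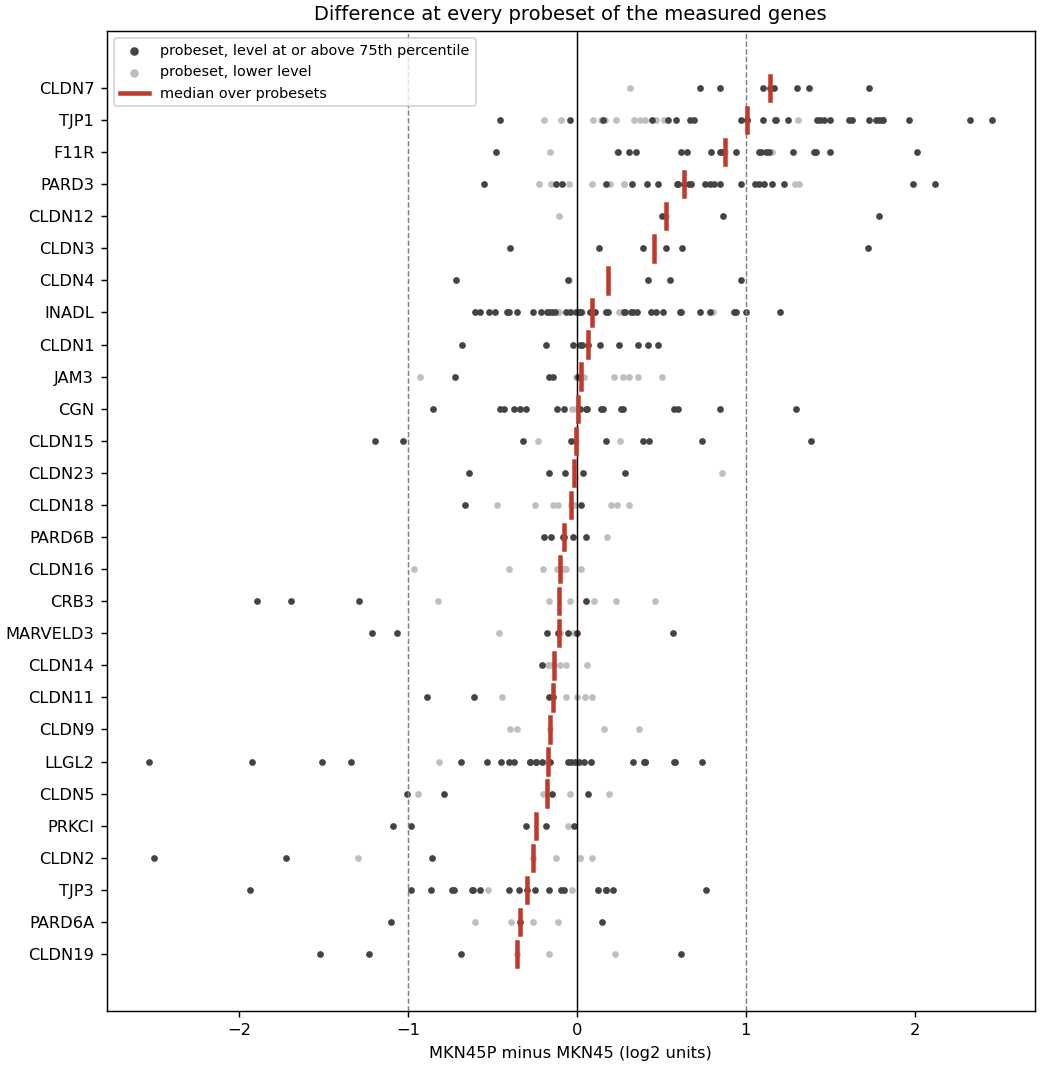
Difference (MKN45P minus MKN45, log2 units) at every probeset of the 28 measured genes, dark where the level was at or above the 75th percentile and pale where it was lower, with a red bar at the gene's median and dashed lines at 2-fold. The probesets of CLDN7 all lie to the right of 0 and those of PRKCI all to the left, and LLGL2, CRB3 and CLDN2 have single probesets far to the left of their median.

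At the level of single exons, 2 of 197 probesets examined in 15 genes of the set (1.02%) departed from their gene by at least 2 log2 units, where the background was 1.33% of 118266 probesets. Genes entered this count if measured, not past 2-fold and covered by 8 or more probesets, and of these only probesets not under 2.77 were read. The departures were those of LLGL2 probeset 3734954 (-2.36), with 2.89 in MKN45P and 5.42 in MKN45, and CLDN2 probeset 3986356 (-2.24). The CLDN2 probeset, at 1.85 in MKN45P and 4.35 in MKN45, was read only through MKN45, so its departure had to be negative. It therefore tells nothing about a single exon of CLDN2. In LLGL2, 3 more probesets were 2-fold lower in MKN45P: 3734932, 3734935 and 3734919 had 6.29, 3.23 and 6.41 in MKN45P, against 8.21, 4.74 and 7.75 in MKN45. The other 24 of its 28 probesets with signal were within 2-fold. CLDN18 and CLDN10 have well-known alternative first exons. In CLDN18, whose stomach form is a marker of gastric epithelium, the difference was -0.03 (-0.20 to 0.11), and its median probeset level over both arrays, 1.97, was near the low end. Its probesets ran from -0.66 at 2644423 to 0.31 at 2644440, and 2644438 stood highest, at 4.24 in MKN45P and 4.21 in MKN45. CLDN10 was not measured, and its probesets ran from -0.55 at 3497220 to 0.10 at 3497196.

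The rest of the measured genes had small differences. CLDN15, another pore-forming claudin, was at -0.005 (-0.23 to 0.40) with probesets from -1.19 to 1.39, CLDN23 at -0.02, CLDN9 at -0.16, CLDN11, a claudin of myelin, at -0.14, CLDN14 at -0.13 and CLDN16, the partner of CLDN19 in the kidney, at -0.10. CLDN1 lies within the span of CLDN16 in RefSeq, and CLDN16 was near the low end in both lines, at 1.86 in MKN45P and 2.04 in MKN45. MARVELD3, an occludin relative, was at -0.10 (-0.39 to -0.03), though its probesets 3667658 and 3667656 were 2-fold lower in MKN45P, at 6.09 and 3.74 against 7.30 and 4.80 in MKN45. The adhesion molecule JAM3 was at 0.02 (-0.10 to 0.26). In all, 9 genes were not measured and had levels between 1.68 and 1.86 in MKN45P and between 1.69 and 1.84 in MKN45. CLDN8, CLDN10, CLDN17, CLDN20, JAM2, CGNL1 and MPDZ were below the median level, and CLDN6 and CLDN24 had too few probesets.

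Other genes of the junction and of polarity, from a separate list, had 39 measured members, of which 23 lay within 0.3 of 0 (59%), beside 64.5% of all measured genes. Of the 39, 2 were 2-fold higher in MKN45P (5.13%) and 1 was 2-fold lower (2.56%), beside the backgrounds of 4.58% and 1.20%. The median was 0.11 (interquartile range over genes -0.08 to 0.47), and 25 of the 39 were positive. TIAM1, an activator of Rac that binds PARD3, had 5.27 in MKN45P and 4.39 in MKN45 (difference 1.08, 0.56 to 1.52), and CTTN, the actin regulator cortactin, had 6.89 in MKN45P and 5.55 in MKN45 (1.00, 0.54 to 1.45). CTTN missed 2-fold with quantile normalization, with loess and with the mean of its probesets, and TIAM1 missed it with the difference of median levels. RAB3B, a small GTPase of vesicle traffic, had 1.93 in MKN45P and 3.56 in MKN45 (-1.32, -1.74 to -0.80). Its MKN45P level was near the low end, where a difference is compressed. OCLN had no probeset carrying that symbol alone and was not analysed here.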

How the data were processed

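Total RNA of MKN45P and MKN45 was measured on 1 exon array each. The authors deposited log2 values, 1 per probeset and array, for 877986 probesets. That the scale is log2 was read from the values. Partek and the genome build hg18 are named, per the submitters' processing notes. The sources used here do not state the background correction, probeset summary or normalization, so the columns were used as deposited. Gene symbols are those of GEO's platform annotation, and the 37 genes matched RefSeq (GRCh38.p14) by current or older name. Positions in hg18 were not used.

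The gene steps were run over all 13130 measured genes with Python 3.11.15, numpy 2.4.6, pandas 2.3.3 and statsmodels 0.14.6, and were checked on simulated data. The genes and lists were chosen with earlier results of these data known. The naming rule covered every gene of the set, with extreme probesets for those past 2-fold, the 3 highest and 3 lowest claudins in full, list genes past 2-fold, probesets departing by 2 or more and the extremes of CLDN18 and CLDN10; F11R, PARD3, CRB3 and further genes were described more fully after their values had been seen. The 10 alternatives changed the scaling, the gene summary, the probesets used, the filters and a floor on low values. An alternative was counted as close for a gene or median inside the main interquartile range, and for a count within 1.5 times.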

Additional observations from a re-analysis of the deposited data

How the results depend on the processing

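The number of genes of the set 2-fold higher in MKN45P was 2, and it was 1 with quantile normalization, 1 with the mean of probeset differences, 4 with the difference of median levels and 1 with at least 10 probesets per gene, a minimum that CLDN7 does not reach. With loess it was again 2, CLDN7 and F11R in place of TJP1. None of the set was 2-fold lower, except 1 (CRB3) when genes were read from their brighter probesets alone (2.77 or more, 4 or more per gene), and 2 (CLDN2 and CRB3) with at least 3, a setting added after the data were seen, in which CLDN2 entered only through its MKN45 values. In the other junction and polarity list 2 genes were higher and 1 lower. The higher count was 1 with quantile normalization, 1 with loess, 1 with the mean and 4 with the difference of median levels. It was 3 from the brighter probesets (4 or more per gene), where LSR joined CTTN and TIAM1. The lower count was 0 with at least 10 probesets. Over all measured genes, 602 were higher and 157 lower, against 1263 and 305 with the difference of median levels and 1218 and 313 from the brighter probesets, 4 or more per gene. Probesets that departed from their gene numbered 2, the one of CLDN2 having entered through MKN45 alone, and 1 with the mean as the gene's centre. The median over the set ran from -0.07 to 0.01 over the alternatives, so it has no settled sign. CLDN7 and TJP1 were positive under every alternative that measured them, while CRB3 ran from -1.49 to 0.05. The cause of these shifts was not tested. No paired analysis was possible because each line had 1 array. Low signal limits what CLDN2, CRB3 and the genes below 2.77 can show, and no difference here has a replicate check.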

Other observations

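A few genes near the low end had single probesets that stood apart, chosen here after their values were seen. CLDN14 was near the low end at 6 of 7 probesets, at 2.22 or lower in both lines, but its probeset 3930964 had 7.88 in MKN45P and 8.08 in MKN45. JAM2 was not measured, yet its probeset 3916533 had 2.93 in MKN45P and 4.78 in MKN45, and its other probesets were at 3.65 or lower. PARD6A had 6.78 in MKN45P and 7.88 in MKN45 at probeset 3665724, and its other 6 probesets were at 3.48 or lower.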
